A study of Mus musculus with 36 samples.

Results

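The genes described here code for the proteins of the cytosolic ribosome. They were taken by symbol from the deposited gene table: symbols that start with Rpl or Rps and a digit, plus Rpsa, Rplp0, Rplp1 and Rplp2. Of 117 such symbols, 19 with -ps, 10 that start with Rps6k (kinases of the protein Rps6) and 1 typed as a pseudogene (Rps4l) were left out. This left 87 of 36528 genes, of which 34 belong by name to the small 40S subunit and 52 to the large 60S subunit. The other is Rps19bp1, which codes for a protein that binds Rps19 and came in by its spelling. No measured value was used to choose them.

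The libraries were made from polyadenylated RNA of mouse bone marrow-derived macrophages (BMDMs), which are grown from bone marrow cells in culture. Cells of COP1-floxed Rosa26-CreERT2 mice, labelled Loxp and called Cop1-floxed here, were set beside cells of COP1-wt Rosa26-CreERT2 mice, called wild type. COP1 is a ubiquitin ligase that marks other proteins for breakdown. On day 7 of differentiation the cells were left untreated (T0) or given 100 ng/ml of lipopolysaccharide (LPS), a component of the outer membrane of Gram-negative bacteria, and were taken at 5 times from T2.5 through T4, T6 and T9 to T13. The labels give no unit for these time numbers. Each of the 12 groups held 3 libraries, 1 from each of the 3 individuals that the labels number per genotype, and the same numbers recur at every time. All 6 mice carried CreERT2, a Cre recombinase that needs tamoxifen to enter the nucleus, at Rosa26, so the wild type cells carried it too. The labels do not say whether tamoxifen was given, how much of the floxed allele was deleted, or what the age of the mice was.

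A ribosome holds a single copy of most of its proteins, so cells make these proteins in matched amounts. Many of their mRNAs start with a C followed by a run of pyrimidines (the letters C and T in DNA), known as a 5′ terminal oligopyrimidine or TOP sequence, through which mTORC1 signalling controls their translation. In macrophages LPS is known to start a large programme of inflammatory transcription, against which the ribosomal protein mRNAs form a part of the housekeeping RNA.

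The start of the transcript is therefore the part of the sequence shown here. Promoter sequences were found in RefSeq (GRCm38.p6) for 66 of the 87 genes. The windows below are 30 bases long with the annotated start at base 16, and capitals mark a run of at least 5 pyrimidines that begins with C within 10 bases of the start. The first 5 have such a run and the other 5 have none, and each gene returns in the results:
Rpl13a: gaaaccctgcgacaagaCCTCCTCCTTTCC
Rps6: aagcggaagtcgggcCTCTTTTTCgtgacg
Rps27: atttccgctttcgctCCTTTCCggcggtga
Rps24: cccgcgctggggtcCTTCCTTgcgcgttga
Rpl22l1: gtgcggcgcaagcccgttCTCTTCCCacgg
Rpl5: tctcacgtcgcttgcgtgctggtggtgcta
Rps3a1: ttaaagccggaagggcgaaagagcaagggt
Rplp0: gtcttcgggtttcgaggaccgcctggttct
Rpl7l1: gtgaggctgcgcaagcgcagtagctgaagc
Rps19bp1: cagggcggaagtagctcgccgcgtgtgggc
The runs are 14 bases long in Rpl13a (chr7:45128731-45128760, minus strand), of which the last lies beyond the window, 9 in Rps6 (chr4:86857353-86857382, minus strand), 7 in Rps27 (chr3:90213634-90213663, minus strand), 7 at the first of 2 annotated starts of Rps24 (chr14:24490663-24490692, plus strand) and 8 in Rpl22l1 (chr3:28805493-28805522, plus strand). The windows with no run are those of Rpl5 (chr5:107900513-107900542, plus strand), Rps3a1 (chr3:86142654-86142683, minus strand), Rplp0 (chr5:115559452-115559481, plus strand), Rpl7l1 (chr17:46782642-46782671, minus strand) and Rps19bp1 (chr15:80264292-80264321, minus strand).

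Such a run was present in 40 of the 66 genes (60.6%), against 34.9% of 17492 protein-coding genes searched in the same way. Motifs were searched on both strands over 250 bases before and 50 bases from the start. CCGGAAG, the core letters bound by ETS factors, was found in 39.4% of the ribosomal protein genes and 12.9% of all. Read on the other strand it is CTTCCGG, which can overlap a pyrimidine run. AAGATGG, which YY1 binds, was in 15.2% and 7.18%, and GGGCGG, the GC box, in 62.1% and 49.2%. TATAAA was in 10.6% of the ribosomal protein genes and 14.8% of all, and CACGTG, the E-box that Myc can bind, in 9.09% and 8.91%. A match says only that these letters stand in the window. The lack of a run says only that none begins within 10 bases of an annotated start, and does not show that an mRNA has no TOP sequence.

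Between 24069541 and 40298009 reads were counted per library (median 34549113). CPM values below (counts of a gene over the scaled library total, times a constant) are scaled by the trimmed mean of M-values (TMM), which sets most genes equal between libraries. Its factors were 1.53 to 1.73 in the 6 T0 libraries and 0.747 to 1.12 in the 30 LPS libraries, and where a plain division by the library total turns a direction round this is said. Cop1, listed under its older symbol Rfwd2, had 5.37 to 8.71 CPM in the Cop1-floxed libraries and 9.92 to 15.1 CPM in the wild type libraries, with no overlap. The macrophage markers were high in every library, and the lymphocyte markers summed to 0.662 to 5.83 CPM. Wild type mouse 2 stood apart from the other 5 mice: its 6 libraries had 25.6 to 89.8 CPM of Xist beside 38.5 to 67.6 CPM of 4 Y-linked genes, while Xist reached at most 0.9 CPM elsewhere.

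The wild type T0 library of that same mouse stood apart in the ribosomal protein genes themselves. Their summed share of its counted reads was 0.690%, against 0.389% and 0.424% in the other two wild type T0 libraries. Of 83 genes tested, 80 were higher there than in both other replicates, against 46.2% of all genes, and the median ratio was 1.79, against 1.03 over all genes. For 58 of the 83 it was the highest of all 36 libraries, against 18.4% of all genes. It was also the library with the lowest total, and all 5 marker sums were the highest of its group. The stromal markers had 929 CPM (against 382 and 661), the granulocyte markers 98.1 CPM (against 23.4 and 45.9), the erythroid and platelet markers 141 CPM (against 82.2 and 76.2), the lymphocyte markers 5.83 CPM (against 2.48 and 3.69) and the macrophage markers 21390 CPM (against 19130 and 19157). Single markers did not all follow their sum. The macrophage sum is mostly Lyz2, with 13146 CPM in that library (against 12271 and 11544). Emr1 (1090 CPM, against 1248 and 1444), Itgam (339, against 505 and 536) and Mertk (86.4, against 169 and 144) were lowest there. The other macrophage markers were highest there. In the stromal list Kdr and Lum were lowest there. Among the wild type mice the stromal sum was highest in mouse 2 at every time. The part of these in the T0 values was not tested. The main counts and medians of comparisons with wild type T0 are therefore also given without this library. T13 against T9 uses neither it nor any other T0 library, but shares the estimate of spread with them.

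Rpl8 and Rplp1 were among the genes with the highest levels per transcript length, with means over the 36 libraries of 326 and 267 RPKM (reads scaled to transcript length and library depth, the deposited unit). Rpl8 (chr15:76904071-76906318) codes for a protein next to the catalytic centre of the large subunit, and Rplp1 (chr9:61913283-61914510) for a protein of the flexible stalk that recruits translation factors. The lowest tested genes were Rpl23a with 0.332, Rpl38 with 0.389 and Rps23 with 0.422 RPKM. The median was 4.87 RPKM. A few genes thus carried most of the reads: the 6 with the most counts, among them Rps3, Rpl8 and Rpl4, held 52.7% of all ribosomal protein counts, and the 10 with the most held 67.9%.

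This spread of levels went with how much of each transcript is unique in the genome's transcripts. The counts hold uniquely aligning reads only, and ribosomal protein genes have many near-identical processed copies. The 21 tested genes with at least 90% of their 100-base stretches found in no other gene had a median of 55.0 RPKM, and the other 62 a median of 3.06 RPKM. The 20 genes under 50% had a median of 1.89 RPKM and none above 7.55 RPKM. Across the 83 genes the Spearman correlation of level and uniqueness was 0.59 with 100-base and 0.47 with 50-base stretches, given as a description. Levels of genes with low uniqueness, such as Rps6 (16.4% unique) and Rpl5 (17.3%), are therefore uncertain, and most comparisons below are made within a gene. The 19 -ps rows held 132911 counts, equal to 3.76% of the counts of the 87 genes.

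**Figure D1:**
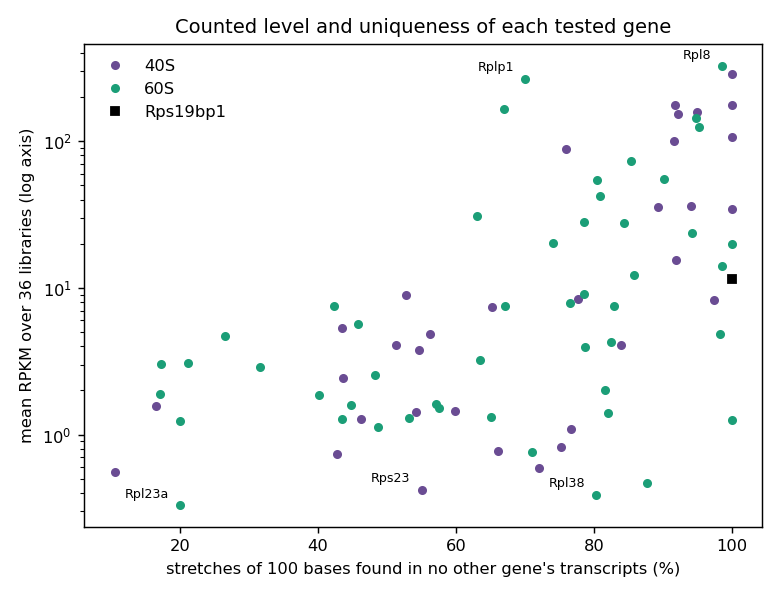
Mean RPKM over 36 libraries (log axis) against the percentage of 100-base stretches found in no other gene's transcripts, 1 point per tested ribosomal protein gene. Rpl8, with 98.6% unique stretches, stands at the top (326 RPKM), while no gene under 50% passes 7.55 RPKM.

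Of the 4 genes that did not pass the count filter, Rpl36a had 205 counts over all 36 libraries, Rpl3l 84, Rps12l2 4 and Rpl10l 0. Rpl3l and Rpl10l are the paralogs of Rpl3 and Rpl10 known from striated muscle and testis. All 4 are left out of the counts below, which are over the 83 tested genes.

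Summed over the 87 genes, ribosomal protein mRNA took a smaller share of the counted reads at each later time of the LPS series. In Cop1-floxed cells the mean share was 0.437% at T0, 0.338% at T2.5, 0.282% at T4, 0.233% at T6, 0.226% at T9 and 0.193% at T13. The wild type means were 0.501%, 0.322%, 0.268%, 0.239%, 0.227% and 0.194% at the same times. The SD at T0 was 0.0135% in Cop1-floxed cells and 0.165% in wild type cells (n = 3 each), the second set by the library named above. The 3 libraries at T13 spanned 0.173% to 0.203% in Cop1-floxed cells and 0.182% to 0.206% in wild type cells, below every library at T9 of the same genotype (0.208% to 0.237% and 0.212% to 0.246%).

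After TMM scaling the shape differed, and the lowest means stood at the last time. The summed level in Cop1-floxed cells averaged 2829 CPM at T0, 3383 at T2.5, 3348 at T4, 3102 at T6, 2823 at T9 and 1914 at T13. In wild type cells it averaged 3018 CPM at T0, with a range of 2276 to 4322, then 3032, 2962, 2767, 2513 and 1899 CPM. T13 was the lowest time on both scales in both genotypes. In RNA from a whole culture, fewer cells of a type and less of an mRNA per cell cannot be told apart.

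**Figure D2:**
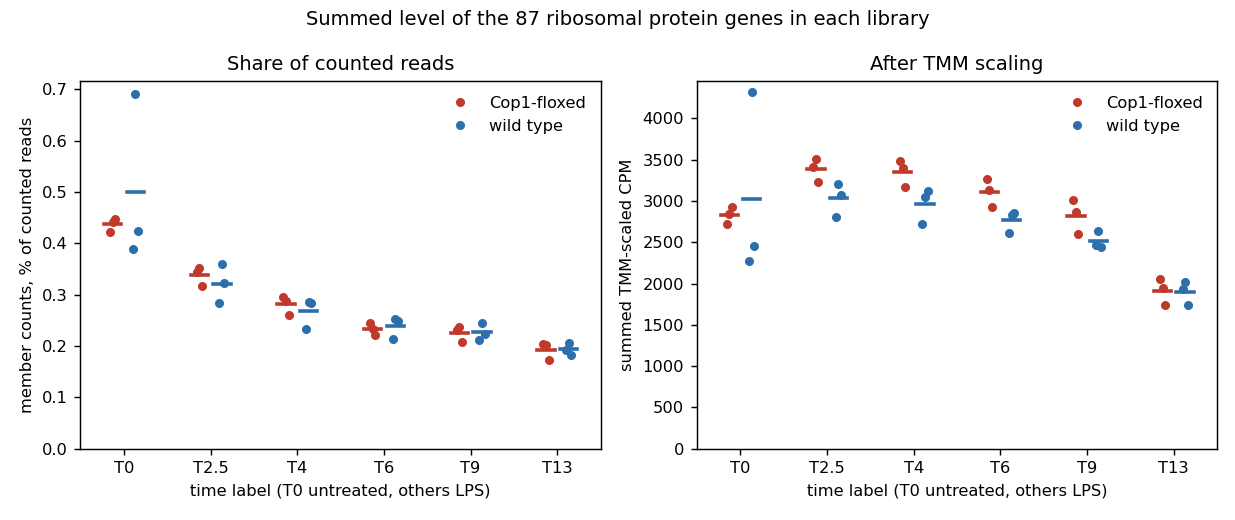
Summed level of the 87 ribosomal protein genes in each of 36 libraries by time (points; lines, mean of 3), as a percentage of counted reads on the left and in TMM-scaled CPM on the right, Cop1-floxed left of wild type at each time. On the left the means are lower at each later time. On the right the means of T0 to T9 lie between 2513 and 3383 CPM, and T13 is lowest, at 1914 CPM in Cop1-floxed and 1899 CPM in wild type cells.

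Among the steps between LPS times, that from T9 to T13 held the most ribosomal protein calls and the lowest medians after TMM scaling. In Cop1-floxed cells 50 of the 83 fell and 2 rose, against 28.3% and 27.3% of all 15685 genes tested. In wild type cells 40 fell and 2 rose, against 27.5% and 28.4% of all genes (edgeR's quasi-likelihood test, Benjamini-Hochberg adjusted p under 0.05 over all genes, here and below). The median log2 fold change of the 83 genes was -0.58 in Cop1-floxed cells, where that of all genes was -0.02, and -0.48 in wild type cells, where that of all genes was 0.01. At T13 all 3 libraries lay below all 3 at T9 for 54 genes in Cop1-floxed cells (29.6% of all genes) and for 56 in wild type cells (31.5% of all genes).

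After TMM scaling the fall was found in both genotypes and both subunits. The 33 genes called lower in both genotypes were 66% of the 50 called in Cop1-floxed cells and 82.5% of the 40 called in wild type cells, against 81.3% and 83.5% for all genes called lower. The overlap of the calls was thus no greater than over all genes. In each of the 6 mice T13 was below T9 for 56 of the 83 genes (67.5%), against 29.6% of all genes. The medians were -0.56 for 40S and -0.64 for 60S genes in Cop1-floxed cells, and -0.46 and -0.50 in wild type cells. The 21 genes with at least 90% unique sequence had medians of -0.57 in Cop1-floxed and -0.42 in wild type cells, close to those of the other 62 genes, -0.59 and -0.49. Genes with a pyrimidine run near an annotated start (37 tested) had medians of -0.53 in Cop1-floxed and -0.48 in wild type cells. Those in which none was found (26) had -0.66 and -0.50.

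This count depends on the scaling and on single mice. With library totals in place of TMM, the median of all genes moved to 0.31 in Cop1-floxed and 0.18 in wild type cells, while that of the ribosomal protein genes stayed below 0 at -0.25 and -0.31. On that scale 19 fell in Cop1-floxed cells (16.7% of all genes) and 17 in wild type cells (20.5%), with 2 higher in each (42.9% and 36.8% of all genes). The 17 in wild type cells were a share of the 83 close to that of all genes. Without Cop1-floxed mouse 1, 2 or 3 the number that fell in Cop1-floxed cells was 33, 27 or 30 (20.4%, 22.5% and 20.9% of all genes). Without wild type mouse 3 the number in wild type cells was 18 of 84 tested, a share close to that of all genes (22%). Without the wild type T0 library that stands apart the number that fell was 57 in Cop1-floxed cells (29.9% of all genes) and 53 in wild type cells (29.3%). Without the whole of wild type mouse 2 it was 55 and 38 (27.7% and 24.4% of all genes).

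**Figure D3:**
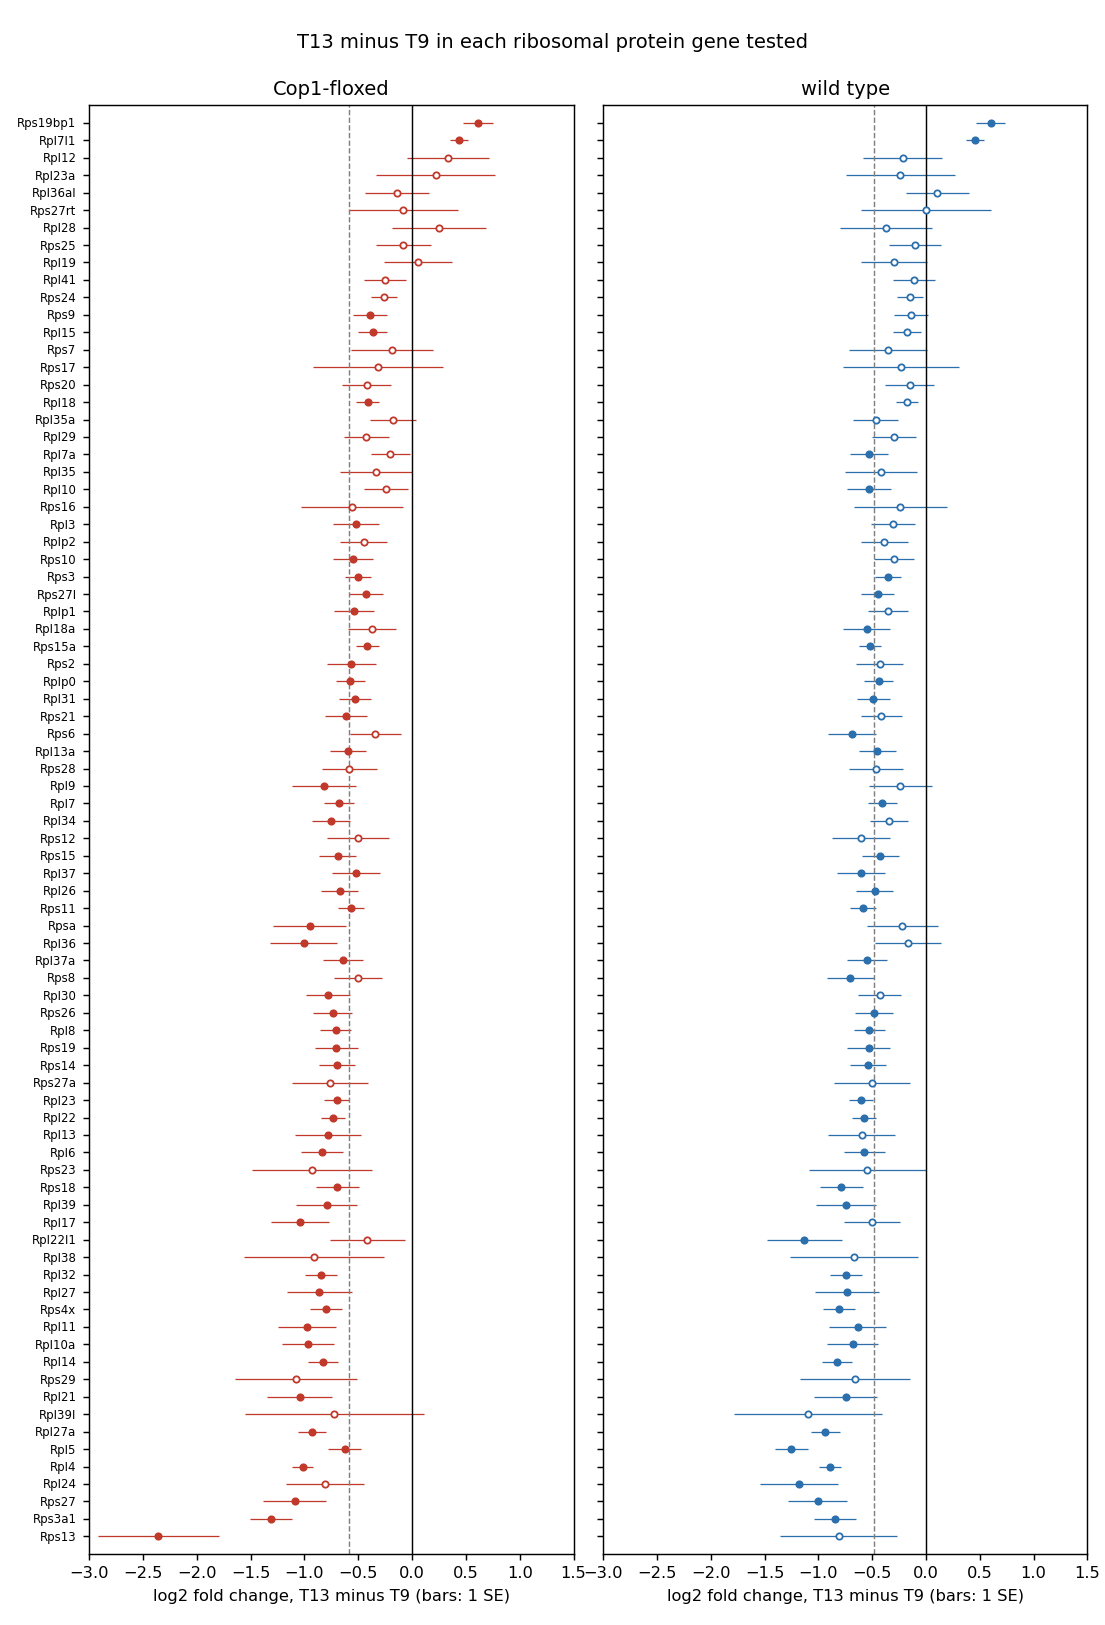
Log2 fold change from T9 to T13 for the tested ribosomal protein genes reported by name, Cop1-floxed on the left and wild type on the right (bars, 1 SE; filled points, adjusted p under 0.05; dashed line, median of all 83). Nearly all points lie left of 0 around medians of -0.58 and -0.48, and Rps19bp1 and Rpl7l1 are the filled points to the right of 0 in both panels.

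Among genes of the large subunit, Rpl4 had the smallest adjusted p. It codes for a protein that lines the exit tunnel, lies at chr9:64173387-64178562, and was picked after its values were seen. Rpl4 had 89.4, 98.4 and 80.9 CPM at T13 in Cop1-floxed cells, against 191, 179 and 174 CPM at T9. Wild type cells had 89.4, 93.9 and 84.6 CPM at T13, against 156, 177 and 164 CPM at T9. The T13 libraries lay well below the T9 libraries in both genotypes, and the log2 fold changes, with their SE, were -1.02 ± 0.10 in Cop1-floxed cells (adjusted p = 5.74e-10) and -0.89 ± 0.10 in wild type cells (adjusted p = 7.12e-09).

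Rpl8, the gene with the highest level, moved less. It had 174, 177 and 161 CPM at T13 in Cop1-floxed cells, against 284, 294 and 258 CPM at T9. The wild type libraries had 167, 172 and 158 CPM at T13, against 229, 254 and 232 CPM at T9. Again no T13 library reached a T9 library, and the log2 fold changes were -0.71 ± 0.14 (adjusted p = 0.000107) and -0.53 ± 0.14 (adjusted p = 0.00251). Rpl22 (chr4:152324436-152334082), an RNA-binding protein of the large subunit, fell by 0.73 ± 0.11 in Cop1-floxed cells (adjusted p = 1.78e-06) and by 0.58 ± 0.11 in wild type cells (adjusted p = 5.65e-05) on the log2 scale.

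The stalk genes did not all pass the test. Rplp0 (chr5:115559467-115563729), the base of the stalk, had 71.5, 69.6 and 65.4 CPM at T13 in Cop1-floxed cells, against 105, 111 and 91.6 CPM at T9. Those of wild type cells had 64.0, 68.1 and 62.4 CPM at T13, against 85.0, 92.7 and 86.1 CPM at T9. The groups did not overlap and Rplp0 fell by 0.58 ± 0.14 in Cop1-floxed and by 0.44 ± 0.14 in wild type cells (adjusted p = 0.000607 and 0.00662), though in neither with library totals (-0.24 and -0.26). For Rplp1 the log2 fold change was -0.54 in Cop1-floxed cells (adjusted p = 0.0148) and -0.36 in wild type cells (adjusted p = 0.105), and for Rplp2 -0.45 and -0.39 (adjusted p = 0.0771 and 0.129). The call of Rplp1 in Cop1-floxed cells was lost without any 1 of the 3 Cop1-floxed mice (-0.55 to -0.44).

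In the small subunit, Rps3 (chr7:99477896-99483709), which sits at the entry of the mRNA channel and also acts in DNA repair, fell by 0.50 ± 0.12 on the log2 scale in Cop1-floxed and by 0.36 ± 0.12 in wild type cells (adjusted p = 0.000877 and 0.0137), in neither with library totals (-0.16 and -0.18). Rps3a1 (chr3:86137940-86142668) had 1.61, 1.65 and 1.66 CPM at T13 in Cop1-floxed cells, against 3.94, 4.85 and 3.45 CPM at T9. Rps3a1 had 1.84, 1.76 and 1.95 CPM at T13 in wild type cells, against 3.13, 4.01 and 2.88 CPM at T9. Its T13 libraries were alike and well below T9, with log2 fold changes of -1.31 ± 0.20 (adjusted p = 1.44e-06) and -0.85 ± 0.19 (adjusted p = 0.00045). It is 54.7% unique, which leaves its level uncertain.

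Rps6, the target of the S6 kinases, is 16.4% unique. Its log2 fold change was -0.34 in Cop1-floxed cells (adjusted p = 0.224) and -0.69 in wild type cells (adjusted p = 0.00958), the second lost without wild type mouse 2 (-0.56) or 3 (-0.72). Rpsa, which is also known as a laminin receptor, fell in Cop1-floxed cells (-0.95, adjusted p = 0.0185) and had -0.22 in wild type cells (adjusted p = 0.592). Rps27a, made as a fusion to ubiquitin, passed in neither (-0.76 and -0.50, adjusted p = 0.0686 and 0.231). Whether the genotypes differ in this step was not tested by itself. The joint test of the responses to LPS below, which is set against T0, called none of these genes.

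Rpl5 and Rpl11, which bind the 5S rRNA and, when free, hold back Mdm2, the ubiquitin ligase of p53, fell in both genotypes. Rpl5 (chr5:107900508-107909005) had 2.28, 2.40 and 2.32 CPM at T13 in Cop1-floxed cells, against 4.33, 2.87 and 3.59 CPM at T9. The wild type values were 1.89, 1.93 and 2.17 CPM at T13, against 4.41, 5.06 and 4.80 CPM at T9. No T13 library overlapped T9, with log2 fold changes of -0.63 ± 0.15 (adjusted p = 0.000896) and -1.25 ± 0.15 (adjusted p = 2.61e-08), the first lost without Cop1-floxed mouse 1 (-0.40) or with library totals (-0.29). Rpl11 had -0.98 and -0.63 (adjusted p = 0.00282 and 0.0428). Rpl13a, known in human myeloid cells as a part of the GAIT complex that blocks translation of inflammatory mRNAs, had -0.59 ± 0.17 and -0.45 ± 0.17 (adjusted p = 0.00348 and 0.0235), both lost with library totals (-0.26 and -0.27) and without mouse 3 of the genotype (-0.52 and -0.41).

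Paralog pairs were measured side by side where both passed the filter. Rps27 (chr3:90212667-90213648) had 0.38, 0.41 and 0.45 CPM at T13 in Cop1-floxed cells, against 0.70, 1.09 and 0.88 CPM at T9. Wild type cells had 0.42, 0.57 and 0.45 CPM at T13, against 1.01, 0.79 and 1.10 CPM at T9. These low counts did not overlap, and Rps27 fell by 1.09 ± 0.29 in Cop1-floxed and by 1.01 ± 0.28 in wild type cells on the log2 scale (adjusted p = 0.00203 and 0.00266). The call in Cop1-floxed cells was lost without Cop1-floxed mouse 2 (-0.87). Its paralog Rps27l, a p53 target with a unique sequence, had -0.43 and -0.45 (adjusted p = 0.0247 and 0.0161). Rpl22l1, the paralog of Rpl22, had -0.41 in Cop1-floxed cells (adjusted p = 0.32) and -1.13 ± 0.35 in wild type cells (adjusted p = 0.00737), the second -0.69 and not called without wild type mouse 2. Rpl39 fell by 0.79 and 0.74 (adjusted p = 0.0169 and 0.0242), and Rpl39l, known as a testis form, passed in neither.

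Rpl7 and Rpl7l1 moved in opposite directions. Rpl7 fell by 0.68 in Cop1-floxed and by 0.41 in wild type cells on the log2 scale (adjusted p = 9.74e-05 and 0.0121). Rpl7l1 (chr17:46773907-46782656) had 43.2, 39.3 and 39.6 CPM at T13 in Cop1-floxed cells, against 30.6, 30.7 and 29.0 CPM at T9, and in wild type cells 42.3, 45.0 and 41.1 CPM at T13, against 30.5, 30.4 and 32.8 CPM at T9. Every T13 library lay above every T9 library, and Rpl7l1 rose by 0.44 ± 0.09 and 0.46 ± 0.08 (adjusted p = 6.81e-05 and 3.52e-05).

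The other riser was Rps19bp1 (chr15:80260614-80264306), which is not a ribosomal protein. Rpl7l1 was placed in the large subunit by its name alone. It had 10.7, 10.6 and 10.8 CPM at T13 in Cop1-floxed cells, against 7.31, 6.25 and 7.39 CPM at T9. The wild type libraries had 11.9, 11.6 and 11.3 CPM at T13, against 7.33, 7.83 and 7.80 CPM at T9. The log2 fold changes were 0.61 ± 0.14 and 0.60 ± 0.14 (adjusted p = 0.000344 and 0.000366), and Rps19bp1 and Rpl7l1 were the 2 genes called higher under each of the alternatives run, library totals included.

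Rps13 had the lowest fold change of all in Cop1-floxed cells (-2.36 ± 0.56, adjusted p = 0.000648), and it rested on 1 library. The T13 libraries had 0.12, 0.14 and 0.15 CPM, against 0.28, 1.51 and 0.35 CPM at T9, and without the T9 library with 1.51 CPM the value was -1.15 and not called. The number of ribosomal protein genes that fell in Cop1-floxed cells without that library was 40 (25.1% of all genes).

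Marker genes of other cells moved over the same step. The stromal and endothelial markers (15 genes) summed to 133 to 185 CPM at T13 in Cop1-floxed cells, against 294 to 351 CPM at T9. In wild type cells they summed to 314 to 719 CPM at T13, against 603 to 1068 CPM at T9. Of 14 tested, 7 fell in Cop1-floxed and 6 in wild type cells (28.3% and 27.5% of all genes). In each 1 was higher (27.3% and 28.4% of all genes). The erythroid and platelet markers summed to 42.1 to 54.2 CPM at T13 in Cop1-floxed cells, against 80.3 to 106 CPM at T9, and to 35.1 to 46.8 CPM in wild type cells, against 98.5 to 109 CPM. The macrophage markers (11 genes) summed to 20387 to 22818 CPM at T13, against 25689 to 27906 CPM at T9, in Cop1-floxed cells and to 20288 to 21884 CPM, against 20579 to 22214 CPM, in wild type cells. The granulocyte markers summed to 24.3 to 32.0 CPM at T13, against 35.7 to 42.5 CPM at T9, in Cop1-floxed cells, with no overlap. Those of wild type cells overlapped (17.1 to 54.8 CPM at T13, against 28.4 to 41.5 CPM at T9). The part of these cells in the fall of ribosomal protein mRNA was not tested.

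The steps before T9 held few calls. No ribosomal protein gene was called higher over any of them in either genotype, by edgeR's quasi-likelihood test. The all-gene shares called higher were 15.4% from T2.5 to T4, 15.4% from T4 to T6 and 7.82% from T6 to T9 in Cop1-floxed cells, and 15.3%, 12.8% and 5.87% in wild type cells. At an unadjusted p under 0.05 there was 1 such gene from T4 to T6 in Cop1-floxed cells and 1 from T2.5 to T4 in wild type cells. In Cop1-floxed cells 2 fell from T2.5 to T4 (Rps27rt and Rpl10a, against 16.3% of all genes), 3 from T4 to T6 (Rpl3, Rpl5 and Rpl4, against 14.6%) and 2 from T6 to T9 (Rpl5 and Rpl4, against 8.19%). In wild type cells none fell from T2.5 to T4 (15.4% of all genes, and 1 at an unadjusted p under 0.05), 4 from T4 to T6 (Rpl36, Rpl5, Rpl27a and Rpl4, 11.9%) and none from T6 to T9 (5.24%, and 3 at an unadjusted p under 0.05). DESeq2 and limma each called 1 from T2.5 to T4 and none from T6 to T9 in wild type cells.

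Set against T0, most ribosomal protein genes were lower at T13 and few had passed the test before. In Cop1-floxed cells 6 were higher and 4 lower at T2.5 (29% and 28% of all genes). At T4 it was 10 higher and 5 lower (31.7% and 35.1%), at T6 8 and 9 (32.6% and 37.7%), at T9 5 and 16 (32.5% and 38.4%), and at T13 1 higher and 52 lower (30.8% and 35%). For wild type cells they were 0 and 5 (28.8% and 30%), 2 and 9 (31.5% and 36.4%), 3 and 19 (32.1% and 38.4%), 3 and 27 (32.3% and 37.9%), and 1 and 57 (32.6% and 34.7%) at the same times. Up to T9 each of these counts was a smaller share of the 83 than the share of all genes called. The median log2 fold change was 0.28, 0.25, 0.07, -0.08 and -0.69 in Cop1-floxed cells and -0.05, -0.11, -0.24, -0.30 and -0.75 in wild type cells, while that of all genes stayed between -0.15 and -0.01. With the individual as a block, 18 were higher and 4 lower at T2.5 in Cop1-floxed cells (30.7% and 30.3% of all genes) and 1 higher and 7 lower in wild type cells (30.6% and 32%).

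The early calls depended on the wild type T0 library that stands apart in both genotypes, and the early medians in wild type cells only. Comparisons within Cop1-floxed cells do not use that library but share the estimate of spread with it. Their medians without it stayed at 0.28, 0.24, 0.06, -0.08 and -0.69. Without that library 30 were higher and 4 lower at T2.5 in Cop1-floxed cells (31% and 29.5% of all genes). Then came 25 higher and 5 lower at T4 (32.9% and 36.3%), at T6 12 and 11 (33.4% and 38.8%), at T9 7 and 20 (33.3% and 39.5%), and at T13 1 and 57 (31.9% and 36.4%). For wild type cells they were 32 and 3 (30.8% and 28.7%), 31 and 5 (32.8% and 34.6%), 17 and 7 (32.9% and 36.4%), 5 and 14 (32.6% and 36.1%) and 5 and 45 (33% and 33.2%), with medians of 0.31, 0.24, 0.12, 0.03 and -0.43. The wild type medians at T2.5 to T9 thus turned from below to above 0.

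The early values depended on the scaling as well. With library totals the median of all genes was -0.64, -0.95, -1.16, -1.08 and -0.73 in Cop1-floxed and -0.72, -1.0, -1.10, -1.03 and -0.80 in wild type cells, and no ribosomal protein gene was called higher at any time. The medians of the 83 genes were then -0.35, -0.63, -0.97, -1.03 and -1.31 in Cop1-floxed cells, above the median of all genes up to T9 and below it at T13. For wild type cells they were -0.70, -0.99, -1.18, -1.17 and -1.45. At T13, 77 were lower in Cop1-floxed cells (61.5% of all genes) and 80 in wild type cells (63.8%).

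**Figure D4:**
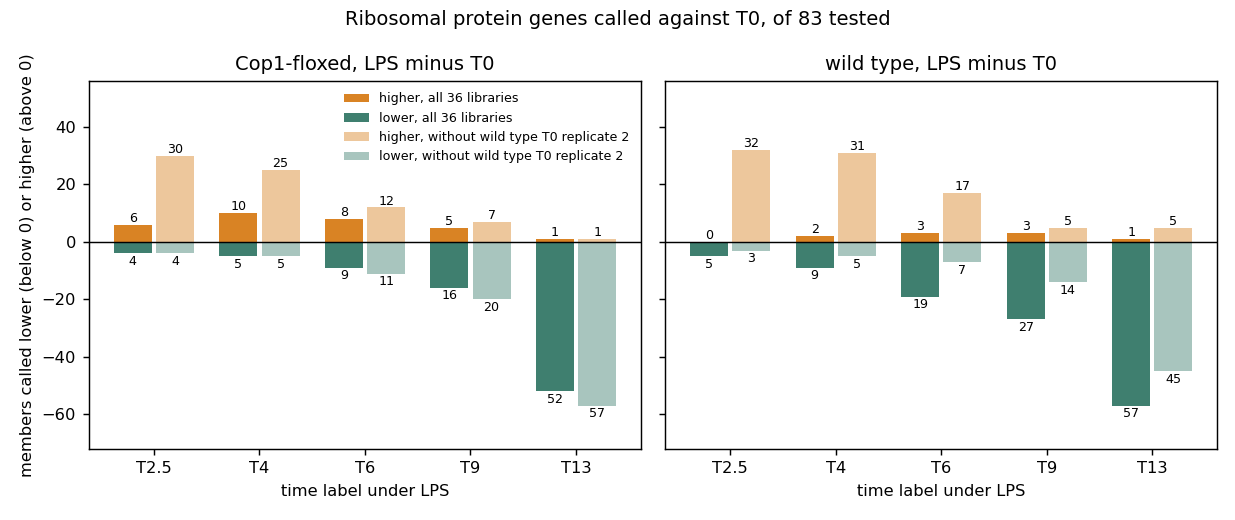
Numbers of the 83 tested ribosomal protein genes called higher (above 0) or lower (below 0) than T0 at each LPS time, Cop1-floxed on the left and wild type on the right, with all 36 libraries (dark bars) and without the wild type T0 replicate 2 library (pale bars). The lower calls dominate at T13 under both settings (52 and 57 in Cop1-floxed, 57 and 45 in wild type cells), while the higher calls at T2.5 go to 30 and 32 without that library.

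At T13 the 49 genes lower than T0 in both genotypes were 94.2% of the 52 called in Cop1-floxed cells and 86% of the 57 called in wild type cells, against 85.4% and 86.3% for all genes called lower. In each of the 6 mice T13 was below T0 for 61 genes (73.5%, against 35.4% of all genes). T2.5 was above T0 in each of the 6 mice for 4 genes (29.8% of all genes). In the 5 mice other than wild type mouse 2, a choice made after the data were seen, T2.5 was above T0 for 45 genes (54.2%, against 35.9% of all genes) and T13 below T0 for 62 (74.7%, against 40% of all genes). In Cop1-floxed cells all 3 T2.5 libraries lay above all 3 T0 libraries for 41 genes (34% of all genes). Rpl4 had log2 fold changes of -1.43 and -1.39, Rpl22 of -1.17 and -1.19, Rpl8 of -0.83 and -0.97, and Rps3 of -0.66 and -0.68 in Cop1-floxed and wild type cells. Without the wild type T0 library that stands apart the wild type values of these genes were -1.19, -0.97, -0.58 and -0.39.

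Rpl3, Rpl10a and Rpl5 did not wait for T13. They were lower from T2.5 on in both genotypes, under each scaling. Rpl3 (chr15:80077781-80083406), next to the catalytic centre, had 2.66, 2.90 and 2.73 CPM at T2.5 in Cop1-floxed cells, against 5.31, 5.55 and 5.80 CPM at T0. Wild type cells had 3.02, 2.99 and 3.42 CPM at T2.5, against 5.59, 8.61 and 6.22 CPM at T0. All T2.5 libraries were below all T0 libraries, with log2 fold changes of -1.01 (adjusted p = 2.42e-05) and -1.11 (adjusted p = 4.94e-06), and -0.91 in wild type cells without the T0 library that stands apart. At T13 they were -2.00 ± 0.20 (adjusted p = 2.49e-10) and -2.01 ± 0.19 (adjusted p = 1.25e-10).

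Rpl10a (chr17:28328471-28331033), which forms the stalk at the exit site of the large subunit, had 2.79, 3.25 and 4.66 CPM at T2.5 in Cop1-floxed cells, against 4.64, 5.21 and 6.67 CPM at T0. Its wild type values were 3.02, 3.25 and 2.89 CPM at T2.5, against 5.81, 7.75 and 5.74 CPM at T0. The Cop1-floxed libraries met at 4.66 and 4.64 CPM and the wild type ones did not overlap. The log2 fold change was -0.63 and -1.07 at T2.5 and -2.40 ± 0.23 (adjusted p = 7.82e-11) and -2.50 ± 0.22 (adjusted p = 2.13e-11) at T13. Rpl5 went to -0.36 and -0.54 at T2.5 and -2.12 ± 0.15 (adjusted p = 4.39e-14) and -2.35 ± 0.15 (adjusted p = 4.24e-15) at T13. The 3 genes are 40.1%, 48.3% and 17.3% unique, and their RPKM means were under the median of the 83. At T2.5 the call of Rpl5 in Cop1-floxed cells was lost without Cop1-floxed mouse 1 (-0.28) or 2 (-0.34).

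Rps24 and Rpl24 stood on the other side, higher than T0 after TMM scaling in both genotypes. Rps24 (chr14:24490678-24496960), a protein of the body of the small subunit, had 62.2, 61.9 and 59.7 CPM at T6 in Cop1-floxed cells, against 39.9, 42.4 and 35.2 CPM at T0. The wild type libraries had 56.7, 55.1 and 57.2 CPM at T6, against 36.1, 59.6 and 36.3 CPM at T0. The Cop1-floxed groups did not overlap, and in wild type cells the T0 library that stands apart lay above all 3. The log2 fold change was 0.64 and 0.36 at T6 and 0.31 and 0.28 at T13 (adjusted p = 0.0219 and 0.038). With library totals the direction turned, and Rps24 was below T0 at every LPS time in both genotypes (-0.31 and -0.43 at T13). Without the T0 library that stands apart the wild type values after TMM scaling were 0.64 at T6 and 0.56 at T13. Rps24 was the one gene called higher at T13 in each genotype.

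Rpl24 (chr16:55966275-55971437), a 60S protein that faces the small subunit, was counted at 0.19 to 1.55 CPM in the T0 and T9 libraries and is 19.9% unique. Its log2 fold change at T9 was 1.40 ± 0.36 in Cop1-floxed and 1.56 ± 0.36 in wild type cells (adjusted p = 0.00105 and 0.000343), and 2.31 in wild type cells without the T0 library that stands apart.

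**Figure D5:**
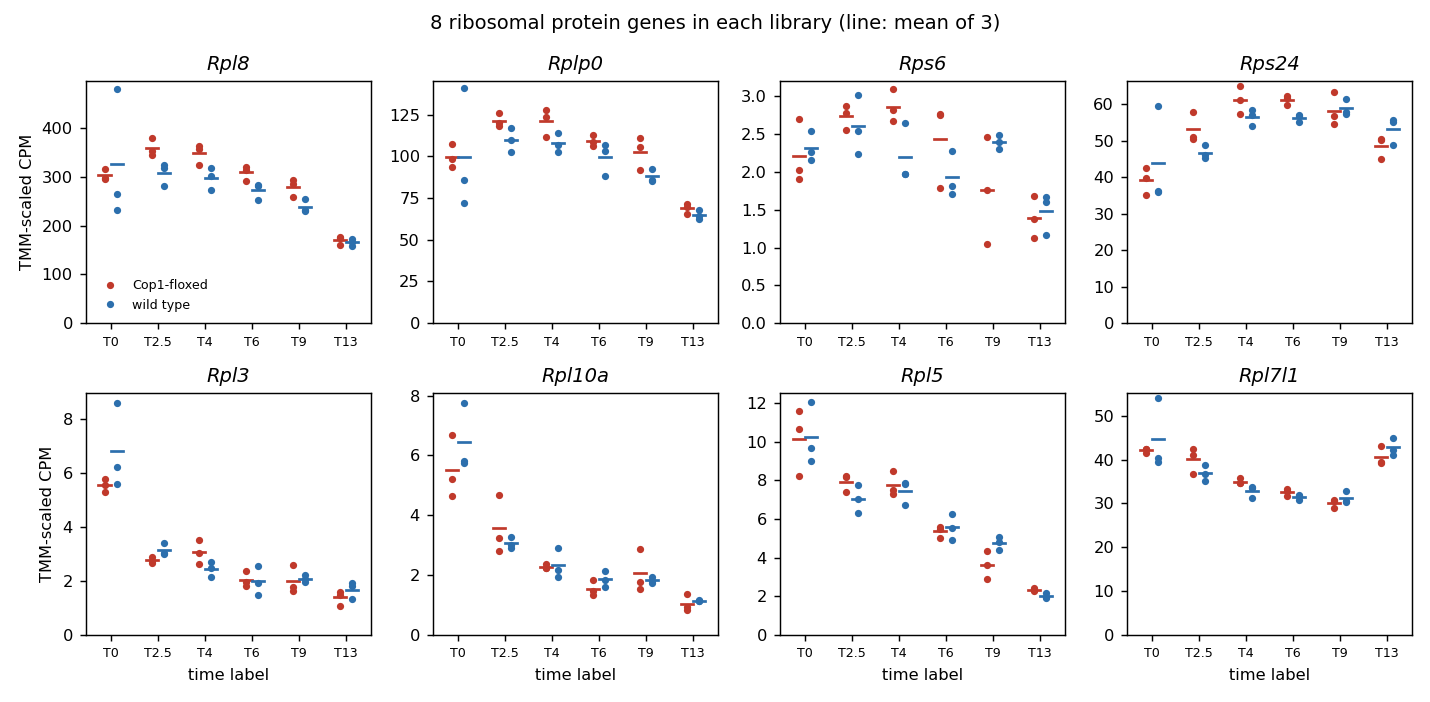
TMM-scaled CPM of 8 ribosomal protein genes in each library by time (points; lines, mean of 3), Cop1-floxed left of wild type. Rpl8 and Rplp0 are lowest at T13, and the means of Rpl3, Rpl10a and Rpl5 are below T0 at every LPS time. Those of Rps24 are above T0 at every LPS time on this scale, but below T0 at every LPS time with library totals. Rpl7l1 returns at T13 to near its T0 level.

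The genotype comparison asks whether ribosomal protein mRNA differed between Cop1-floxed and wild type cells at a given time. At each time the stromal and endothelial marker sum was lower in every Cop1-floxed library (at T0 132 to 210 CPM, against 382 to 929 CPM). The macrophage marker sum was higher in every Cop1-floxed library up to T9 (at T0 24540 to 25696 CPM, against 19130 to 21390 CPM) and overlapped at T13. The part of these differences in the comparison was not tested. None of the 83 genes passed at any of the 6 times by edgeR's quasi-likelihood test, nor by DESeq2 or by limma on the RPKM values. Of all genes 5.6% were higher and 3.97% lower at T0, and at the 5 LPS times in order the shares higher were 1.45%, 2.11%, 4.19%, 5.92% and 1.37%, and those lower 2.45%, 2.75%, 3.61%, 4.53% and 1.73%. At an unadjusted p under 0.05 the numbers of ribosomal protein genes were 1, 3, 6, 2, 2 and 0. The median differences were -0.12, 0.16, 0.17, 0.17, 0.11 and -0.01 on the log2 scale, beside 0.03, 0.06, 0.06, 0.06, 0.02 and -0.02 over all genes. Without the wild type T0 library that stands apart the median at T0 turned to 0.21 (0.07 over all genes). At T2.5 the Cop1-floxed libraries lay above all wild type libraries for 25 genes and below them for 3 (16.7% and 8.19% of all genes), and at T13 for 4 and 6 (9.81% and 11.2%).

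Single genes with the smallest adjusted p were Rpl39l at T0 and Rpl5 at T9. Rpl39l had 0.76, 0.40 and 0.47 CPM in Cop1-floxed cells, against 0.78, 3.12 and 1.65 CPM in wild type cells, with overlap between the groups and a log2 fold change of -1.73 ± 0.68 (adjusted p = 0.118). For Rpl5 at T9, with the values given above, the difference was -0.40 ± 0.15 (adjusted p = 0.0794) and the groups did not overlap. It was called with library totals, with a mean of at least 5 CPM, or without Cop1-floxed mouse 1.

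Without the wild type T0 library that stands apart, 6 genes were higher in Cop1-floxed cells at T0 and none lower (4.73% and 2.12% of all genes), among them Rpl8 (0.29, adjusted p = 0.0328), Rplp0 (0.34, adjusted p = 0.0175), Rpl23, Rpl7 and Rps19bp1 (0.28). The number higher was then 1 at T2.5 (2.81% of all genes), 5 at T4 (4.19%), 1 at T6 (7.45%), 5 at T9 (9.57%) and 0 at T13 (2.01%), with Rpl23 among them at each time up to T9, while 1 was lower at T9 (5.81%). At T0 that direction is set by 2 wild type libraries. The comparisons at the LPS times use no T0 library but share the estimate of spread. The medians at those times without that library were 0.16, 0.17, 0.17, 0.11 and -0.01, as with all 36 libraries.

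The genotypes' responses to LPS were compared with a joint test of the 5 interaction terms. None of the 83 genes passed (smallest adjusted p 0.716, none at an unadjusted p under 0.05, and none by DESeq2 or limma), against 0.599% of all genes. The median difference of response, Cop1-floxed minus wild type, was 0.30 at T2.5, 0.28 at T4, 0.29 at T6, 0.22 at T9 and 0.13 at T13. These positive medians rest on the wild type T0 library that stands apart: without it they were -0.07, -0.05, -0.06, -0.10 and -0.22 at the same times (-0.02, -0.02, -0.03, -0.05 and -0.09 over all genes). The joint test called none without it either.

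Genes that work with the ribosome gave a setting for these values, with lists chosen by function. Of all genes, 27.3% rose and 28.3% fell from T9 to T13 in Cop1-floxed cells, and 28.4% and 27.5% in wild type cells. Of 25 translation genes whose mRNAs are known or thought to carry TOP sequences, 16 fell and 3 rose from T9 to T13 in Cop1-floxed cells (median -0.55) and 13 fell and 3 rose in wild type cells (median -0.33). Against T0, 21 of the 25 were lower at T13 in each genotype (35% of all genes in Cop1-floxed and 34.7% in wild type cells). Pabpc1, the poly(A)-binding protein, had -0.98 and -0.97 from T9 to T13, and Eef1a1, the elongation factor that brings tRNA, -0.75 and -0.72 (adjusted p = 1.42e-09 and 3.41e-09 for Eef1a1). Of parts of the 40S or 60S subunit outside the symbol rule, Gnb2l1 (Rack1) fell in both genotypes (-0.82 and -0.70), and Fau passed in neither.

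The mitochondrial ribosome's 77 genes went the other way from T9 to T13: 35 rose and 7 fell in Cop1-floxed cells (median 0.30), and 39 rose and 3 fell in wild type cells (median 0.35). Of 15 genes of RNA polymerase I, which makes the large ribosomal RNAs, 8 rose and 1 fell in Cop1-floxed cells and 10 rose and 1 fell in wild type cells, among them Polr1b (1.29 and 1.66). The 50 ribosome biogenesis factors were mixed, with 17 higher and 15 lower in Cop1-floxed and 16 and 14 in wild type cells. Beside each list in this paragraph stand the shares of all genes over this step. In Cop1-floxed cells 27.3% rose and 28.3% fell, and in wild type cells 28.4% and 27.5%. Heatr1, a factor of the early small subunit, rose (1.36 and 1.42), while Sbds, which readies the large subunit for use, fell (-2.10 and -2.27). Of 24 genes of mTORC1 and growth control, 10 rose and 5 fell in each genotype, and Larp1, which binds TOP mRNAs, was among those that fell (-1.30 and -1.15).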

How the data were processed

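Polyadenylated RNA of 36 libraries was sequenced; replicates are separate individuals, per the labels. Per the submitters' processing notes GSNAP and the genome build GRCm38 were used, with versions and settings not given in the sources used here. Whole-number counts of reads with a single alignment, one row per gene model and without normalisation, were deposited as the first table, per the file headers. RPKM values that the authors had corrected with size factors form the second, per the file headers. Symbols, types, positions and sizes of the gene models (an other kind of value) come from another deposited table. No read strand setting is stated, so reads of overlapping antisense genes cannot be told apart.

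Genes were kept by edgeR's filterByExpr over the 12 groups (15685 genes) and scaled by TMM. One mean per group was fitted to all 36 libraries with edgeR 4.0.16 in R 4.3.3, and the two-sided quasi-likelihood F test was adjusted over all genes by Benjamini-Hochberg (threshold 0.05). SE is the log2 fold change over the root of F. The test was checked on simulated data with known changes. Uniqueness is the share of a gene's 100-base or 50-base stretches found in no other gene's transcripts (GENCODE M21, GRCm38). Genome positions are those of the deposited table, and promoter windows those of RefSeq GRCm38.p6.

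Named genes were those with a role or paralog of interest, the 3 highest and 3 lowest called in each LPS or time comparison (4 for genotype), the 3 highest and 3 lowest levels, up to 4 of each other list by adjusted p, and Cop1. Rpl4 and some comparisons of Rpl8, Rps9, Rps24, Rps3a1, Rpl24 and Rpl10a were added after their values were seen. Results of some genes are not reported here. Members and lists were chosen with earlier results of these data known.

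The labels give the same individual at each time, so individuals pair libraries within a genotype: deviations from group means correlated at 0.17 on average (-0.099 to 0.47). Across genotypes equal numbers are different mice (-0.18 to 0.12). Replicates differed beyond counting noise (chi-square of at least 7.89 per degree of freedom over 36 pairs). Alternatives were other scalings (DESeq2's size factors, library totals), no filter or a mean of at least 5 CPM, DESeq2 1.42.0, limma 3.58.1 on log2(RPKM + 1) with a mean RPKM of at least 0.1, blocks, fewer libraries in the fit, and each individual left out.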

Additional observations from a re-analysis of the deposited data

How the results depend on the processing

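The 240 values of named genes were recomputed under up to 17 settings, which gave 3715 values. Of these, 3365 kept direction and side of the threshold, 220 lost the call, 94 gained one and 36 changed sign. Unless a gene is named, the numbers below count ribosomal protein genes called in either direction. The cause of a change was not tested unless the setting itself uses fewer genes or libraries. With library totals in place of TMM, the calls against T0 in Cop1-floxed cells numbered 36 at T2.5, 67 at T4, 72 at T6 and 73 at T9, and in wild type cells 68, 74, 77 and 76. On that scale there were 21 calls from T9 to T13 in Cop1-floxed and 19 in wild type cells, 8 and 11 from T2.5 to T4, 17 from T4 to T6 and 1 from T6 to T9 in Cop1-floxed cells, and 1 between genotypes at T9. Of all genes, 73.6% to 85% were called against T0 on that scale, 11.7% to 43.6% over the steps before T9 and 57.3% to 59.5% from T9 to T13. Among the 240 values recomputed, the log2 fold changes that turned negative at T2.5 in Cop1-floxed cells were those of Rps9 (-0.097), Rpl10 (-0.57), Rpl13a (-0.42), Rpl22 (-0.57), Rpl7 (-0.35), Rplp0 (-0.35), Rps27l (-0.38), Rps3 (-0.41), Rps4x (-0.41) and Rpl8 (-0.38). At later times they were those of Rps24 (-0.24 at T4 and -0.31 at T13), Rpl39 (-0.26 at T4), Rpl27 (-0.27 at T6) and Rpl19 (-0.38 at T6). In wild type cells Rpl7 (-0.54), Rplp0 (-0.50), Rps27l (-0.54), Rps3 (-0.62), Rps4x (-0.55), Rps6 (-0.50) and Rps9 (-0.45) turned at T2.5. Rps24 (-0.52, -0.59, -0.46 and -0.43 at T4, T6, T9 and T13) turned later. Over the TMM-scaled library size the summed share was 0.283% at T0, 0.335% at T4, 0.310% at T6 and 0.282% at T9 in Cop1-floxed cells, and 0.302% at T0, 0.277% at T6 and 0.251% at T9 in wild type cells. DESeq2's size factors gave 1 call from T2.5 to T4 in each genotype and 2 from T4 to T6 in wild type cells. For DESeq2's size factors, DESeq2 and limma the share of all genes called over the steps before T9 was 11.4% to 33.8%, and with no filter 5.52% to 17.4%. With no filter 1 was called from T2.5 to T4 in Cop1-floxed cells. A mean of at least 5 CPM left 41 genes, with 5, 4, 10 and 32 calls against T0 at T2.5, T4, T6 and T13 in Cop1-floxed cells, 36 at T13 in wild type cells, 31 from T9 to T13 in Cop1-floxed and 27 in wild type cells, 1 from T2.5 to T4 and 1 from T6 to T9 in Cop1-floxed cells, and 1 between genotypes at T9. Under that filter 67.3% to 80.4% of all genes were called against T0, 66.8% to 67.8% from T9 to T13 and 18.7% to 45.8% over the earlier steps. With the individual as a block, 22 were called at T2.5 in Cop1-floxed and 8 in wild type cells, 1 from T2.5 to T4 in each genotype, 6 from T4 to T6 and 4 from T6 to T9 in Cop1-floxed cells, and 1 from T6 to T9 in wild type cells. The block called 61% to 73.7% of all genes against T0 and 14.7% to 36.1% over the steps before T9. It moved no other count by over 1.5 times, and the replicate number as a block between genotypes, where it pairs different mice, gave 0 calls. With only the libraries of the genotype in the fit (57.1% to 75% of all genes called against T0, and 8.93% to 37% over the steps before T9), 31 were called at T2.5 and 27 at T4 in Cop1-floxed cells, 6 from T4 to T6 and 6 from T6 to T9 in Cop1-floxed cells, and 2 from T4 to T6 in wild type cells. DESeq2 called 1 from T2.5 to T4 in each genotype, and limma 1 from T2.5 to T4 in wild type and 4 from T6 to T9 in Cop1-floxed cells. Leaving out each mouse, the wild type T0 library that stands apart or the Cop1-floxed T9 library high in Rps13, the calls between genotypes ranged over 0 to 6 at T0, 0 to 1 at T2.5, 0 to 5 at T4, 0 to 1 at T6 and 0 to 6 at T9. Against T0 they ranged over 4 to 34, 6 to 30, 9 to 23, 13 to 27 and 35 to 58 at the 5 LPS times in Cop1-floxed cells, and over 5 to 35 at T2.5, 8 to 36 at T4 and 18 to 37 at T9 in wild type cells. From T9 to T13 the range was 29 to 59 in Cop1-floxed and 20 to 55 in wild type cells, from T2.5 to T4 1 to 4 and 0 to 3, from T4 to T6 0 to 7 in each, and from T6 to T9 0 to 7 and 0 to 2. Over these omissions 46.7% to 72.9% of all genes were called against T0, 0.608% to 15.4% between genotypes, 5.02% to 36.1% over the steps before T9 and 43.9% to 59.5% from T9 to T13. Without wild type mouse 2, Rplp1 (0.38) and Rpl8 (0.25) at T2.5 and Rps19bp1 (0.25) at T13 turned to above 0 in wild type cells. With one mouse or library left out, the log2 fold change at T2.5 in wild type cells lay between -0.27 and 0.36 for Rpl13a, -0.22 and 0.50 for Rplp1, -0.28 and 0.41 for Rplp2, and -0.23 and 0.31 for Rpl8, and at T13 between -0.26 and 0.25 for Rps19bp1. The genotype difference at T0 lay between -0.20 and 0.28 for Rps19bp1, and -0.29 and 0.29 for Rpl8. Each highest value came without the wild type T0 library of mouse 2. Of 87 genes, 4 had too few counts to test, and at the low counts of genes such as Rps13, Rps27 and Rpl24 a single library can set a fold change.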
